A study of Homo sapiens with 6 samples.

Results

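The 83 genes described here encode the proteins of the cytosolic ribosome. They were chosen by name and level: protein-coding genes with an RPL symbol (large subunit) or an RPS symbol (small subunit) and a mean of at least 1 CPM (counts scaled to a common library size) over the 6 libraries. Of the 20263 gene IDs in the table, 87 matched by symbol and 83 passed the level, 51 of the large and 32 of the small subunit. The 4 genes left out were RPS4Y1, RPS4Y2, RPL3L and RPL10L, with means from 0 to 0.52 CPM, whereas the 3 lowest genes kept were RPL39L at 1.11 CPM, RPL22L1 at 13.7 CPM and RPL26L1 at 37.8 CPM. All 83 genes also passed the low-count filter of the tests. The libraries came from U118, an established human malignant glioma line that the labels call an astroblastoma line, harvested at day 2 of siRNA transfection. There was 1 library from wild-type cells (WT), 1 from cells given the control siRNA (siNC), and 4 (siRIPK2_1 to siRIPK2_4) from cells in which siRNA was directed at RIPK2, the adaptor kinase of the NOD1 and NOD2 sensors of bacterial cell wall. The labels do not say whether the 4 siRIPK2 libraries are different siRNAs, separate cultures or repeats, nor whether WT cells met transfection reagent. Every p-value accordingly reflects no more than the spread among these libraries, and that spread may be technical.

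A ribosome is built in the nucleolus from ribosomal RNA and, for most of these proteins, a copy of each, so a growing cell needs them in like amounts. Most of these mRNAs begin with a C followed by an unbroken run of pyrimidines (C and T in the DNA), the 5′ terminal oligopyrimidine tract, through which mTOR and the RNA-binding protein LARP1 set their translation and stability together. In dividing cells, glioma lines among them, ribosomal protein mRNAs are among the most abundant in the cytoplasm.

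That shared feature was visible at the annotated start sites. RefSeq promoter entries (GRCh38.p14) were matched for 67 of the 83 genes and gave 83 starts. The longest run of C and T touching the stretch from 5 bases upstream to 10 bases downstream of the start had a median length of 11 bases, against 4 bases at 16558 starts of other genes. Runs of 7 or more bases stood at 59 of the 83 starts (71.1%) and at 17.8% of the others. The 30 bases around the start (15 on each side, sense strand) are printed for the genes that the results turn on, next to RPS6 as a typical member, with the pyrimidine run in capitals.
RPS6 (chr9:19380222-19380251, minus strand): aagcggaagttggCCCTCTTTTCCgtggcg
RPS23 (chr5:82278340-82278369, minus strand): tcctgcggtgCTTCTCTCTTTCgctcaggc
RPS10 (chr6:34426055-34426084, minus strand): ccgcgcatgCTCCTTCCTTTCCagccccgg
RPS12 (chr6:132814554-132814583, plus strand): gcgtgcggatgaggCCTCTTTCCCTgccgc
RPL21 (chr13:27251543-27251572, plus strand): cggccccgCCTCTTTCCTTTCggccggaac
RPSA (chr3:39406705-39406734, plus strand): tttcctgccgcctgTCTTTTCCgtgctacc
RPS26 (chr12:56041903-56041932, plus strand): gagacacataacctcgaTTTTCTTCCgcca
RPL26 (chr17:8383179-8383208, minus strand): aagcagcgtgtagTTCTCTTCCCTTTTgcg
RPL26L1 (chr5:172958714-172958743, plus strand): agtcttccaggggTCggcgaacgaaacgcg
RPL26L1 (chr5:172958865-172958894, plus strand): ggcggggcggcggccacaaaCCCgcaggca
RPS27 (chr1:153990747-153990776, plus strand): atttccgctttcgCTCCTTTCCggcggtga
RPS27L (chr15:63157463-63157492, minus strand): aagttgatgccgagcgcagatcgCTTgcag
RPL22 (chr1:6199581-6199610, minus strand): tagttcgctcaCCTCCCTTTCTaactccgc
RPL22L1 (chr3:170870181-170870210, minus strand): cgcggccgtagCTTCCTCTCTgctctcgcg
RPL7L1 (chr6:42879601-42879630, plus strand): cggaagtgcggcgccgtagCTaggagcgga
The runs in RPS6, RPS23, RPS10, RPS12, RPL21, RPSA, RPS26, RPL26, RPS27, RPL22 and RPL22L1 were 8 to 14 bases long. The paralogs RPL26L1 (2 annotated starts), RPS27L and RPL7L1 had runs of only 2 or 3 bases, while RPL22L1, the paralog of RPL22, had a run of 10. The letters CTTTC, searched within 15 bases of the start on the sense strand, were present at 32 of the 83 starts (38.5%) and at 4.32% of other starts. Over the whole 300 bases and both strands, CTTTC was found at 75.9% against 51.6%, CTTTTC at 32.5% against 18.5%, the ETS-type letters CCGGAAG at 33.7% against 15.4%, the YY1-type letters AAGATGGCG at 7.23% against 3.08% and the TATA-box letters TATAAA at 7.23% against 7.04%. None of these 5 searches contains another. These are matches of letters in a window and not measured binding sites.

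The libraries held between 33540619 and 45309423 counts. RIPK2, the targeted gene, stood at 56.8 CPM in WT, 43.4 CPM in siNC and 6.58 ± 3.67 CPM (SD, n = 4) in siRIPK2, with a range of 3.86 to 11.9 CPM. Its log2 fold change was -2.72 against siNC, -3.11 against WT and -2.93 ± 0.426 (SE) against both controls. In edgeR's test against both controls its adjusted p was 0.739. The knockdown target itself thus missed the adjusted threshold of 0.05, so a gene that misses it is not shown to be unchanged. Of 9 glioma and mesenchymal markers 7 reached 1 CPM, among them VIM, FN1 and CD44, and their summed level was 12696 to 21805 CPM. GFAP, the astrocyte filament gene, was near 0 at 0.532 to 1.09 CPM. Summed markers of epithelium, endothelium, neurons and red blood cells stayed at or under 7.54 CPM in every library. Among leukocyte markers CD68, a lysosomal gene that other cells also express, accounted for nearly all of the signal (91.1 to 164 CPM), and PTPRC, CD3E, AIF1 and LYZ were at or near 0. Mitochondrially encoded genes took 4.1% to 4.71% of the counts.

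Ribosomal protein genes took a different share of the counts in each library, and the siRIPK2 libraries spanned the whole range. The share was 3.35% in WT (95% exact Clopper-Pearson interval 3.344 to 3.356) and 3.75% in siNC (3.746 to 3.759). It was 3.09% in siRIPK2_1 (3.087 to 3.098), 3.28% in siRIPK2_2 (3.272 to 3.283), 4.85% in siRIPK2_3 (4.841 to 4.853) and 3.96% in siRIPK2_4 (3.949 to 3.961), with a mean of 3.79% ± 0.795 (SD, n = 4). So the siRIPK2_1 and siRIPK2_2 shares lay under both controls and the siRIPK2_3 and siRIPK2_4 shares above both. The intervals cover counting error only. Large subunit genes took 1.94% to 3.06% and small subunit genes 1.15% to 1.79%, and both were lowest in siRIPK2_1 and highest in siRIPK2_3. The ratio of large to small subunit counts was 1.63 in WT and 1.56 in siNC, whereas siRIPK2_1 had 1.69, siRIPK2_2 1.59, siRIPK2_3 1.71 and siRIPK2_4 1.68. The siRIPK2 mean was 1.67 ± 0.0523 (SD, n = 4), and siNC lay under all 4 siRIPK2 libraries.

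**Figure D1:**
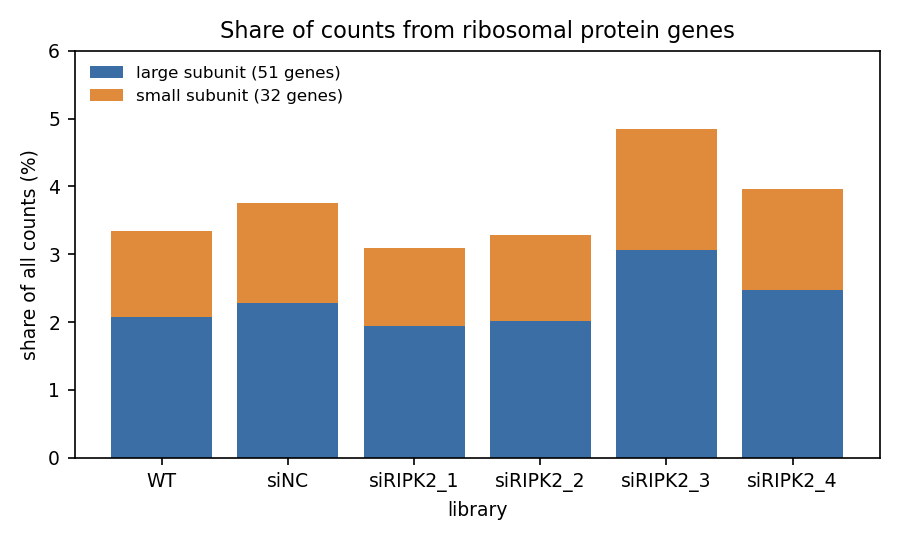
Share of all counts (percent, y axis) from the 51 large and 32 small subunit genes, stacked, in each library (x axis). The bar of siRIPK2_3 reaches 4.85% and that of siRIPK2_1 3.09%, with WT and siNC between them at 3.35% and 3.75%.

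Gene by gene, the shift was shared by nearly the whole family. Each gene's log2(CPM + 1) was set against its own mean over the 6 libraries, and the median of these deviations over the 83 genes was -0.15 in WT, 0.10 in siNC, -0.29 in siRIPK2_1, -0.21 in siRIPK2_2, 0.44 in siRIPK2_3 and 0.17 in siRIPK2_4. The median over all genes tested was between 0.01 and 0.02 in every library. A total of 70 of the 83 genes were highest in siRIPK2_3, where 20.4% of all genes tested were highest. The lowest of the 6 libraries was siRIPK2_1 for 47 of the 83 genes, against 21.1% of all genes tested, and siRIPK2_2 for 25, against 17.2%. Another 8 genes, among them RPL3 and RPS26, were highest in siRIPK2_4, against 16.3% of all genes tested. The genes above their own mean numbered 10 in WT, 66 in siNC, 7 in siRIPK2_1, 9 in siRIPK2_2, 79 in siRIPK2_3 and 76 in siRIPK2_4.

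**Figure D2:**
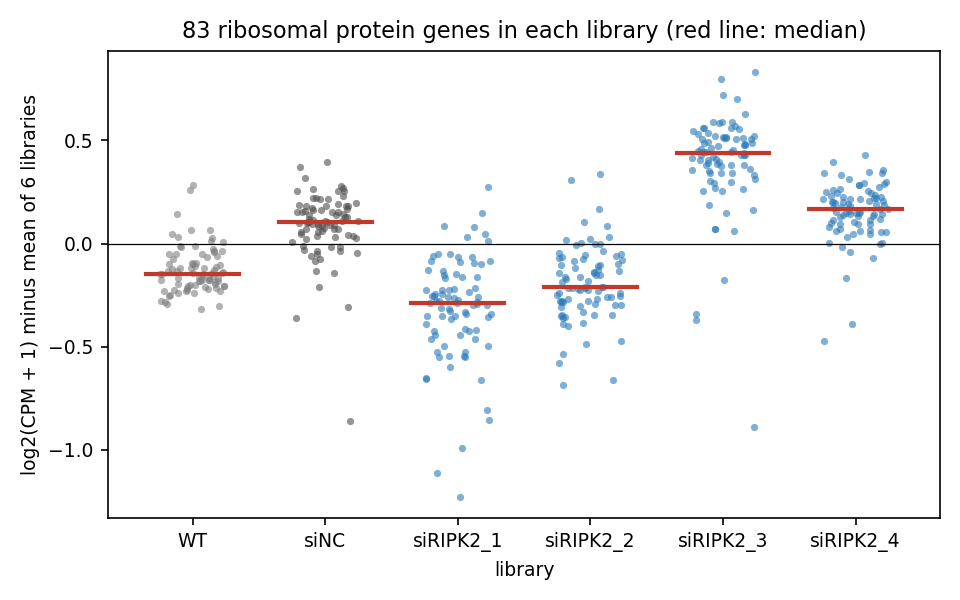
Deviation of each of the 83 genes (points) from its mean over the 6 libraries, in log2(CPM + 1) (y axis), per library (x axis), with the median as a red line. Nearly all points lie above 0 in siRIPK2_3 (79 genes) and below 0 in siRIPK2_1, and single genes stand far under the others in siNC, siRIPK2_1 and siRIPK2_3.

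Over the 4 siRIPK2 libraries the SD of a ribosomal protein gene in log2(CPM + 1) had a median of 0.37. The same median was 0.28 for 2120 other genes at 100 CPM or more and 0.29 for all genes tested. Once each library's median over the family was subtracted, the SD within the family was 0.15. Most of the spread of these genes between siRIPK2 libraries was therefore common to them, and 440 of the 498 gene and library values (88.3%) lay within 0.25 of their library's median. In bulk RNA, fewer cells of a type and less RNA per cell cannot be told apart.

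Depth and share did not rank the libraries alike, and a link between them was not tested. The library with the highest share, siRIPK2_3, was the deepest (45309423 counts), but siRIPK2_2 (39439406) and siRIPK2_1 (38798207) came next in depth with the lowest shares, and siNC was the shallowest (33540619). The ribosomal protein mRNAs are short, with a median transcript of 709 bases against 2809 for all genes tested, while their GC content was similar (48.8% and 48.9%). Another 579 genes with transcripts under 1000 bases and at least 10 CPM had median deviations of 0.00347 in WT, 0.13 in siNC, -0.23 in siRIPK2_1, 0.00494 in siRIPK2_2, 0.16 in siRIPK2_3 and 0.04 in siRIPK2_4. Of these 579 short genes 287 were lowest in siRIPK2_1 and 219 highest in siRIPK2_3, against 21.1% and 20.4% of all genes tested. The family had 47 and 70 of its 83 genes there. With offsets for gene length and GC content per library, the family's median deviation was 0.33 in siRIPK2_3 and -0.08 in siRIPK2_1. With these offsets 64 genes were highest in siRIPK2_3, and only 18, in place of 47, were lowest in siRIPK2_1. In siRIPK2_2 the offsets gave -0.25. The part of transcript length in the siRIPK2_1 pattern beyond these values was not tested. Within the family, no property followed the shift closely: across the 83 genes, which share their libraries, the siRIPK2_3 deviation had a Pearson's r of -0.24 with transcript length, 0.18 with level, 0.08 with GC content and -0.11 with the number of annotated pseudogenes, as a description only. The 28 genes that hold a snoRNA in an intron had a median deviation of 0.42 in siRIPK2_3 and -0.26 in siRIPK2_1, and the 55 without one 0.45 and -0.31.

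Against siNC, the control that also received siRNA, the family as a whole stood slightly lower in siRIPK2 and no gene passed the test. In edgeR's quasi-likelihood test, 29 of the 83 genes were higher and 54 lower, with a median log2 fold change of -0.05 (range -0.41 to 1.09), where 51.7% of all 14306 genes tested were higher and the median was 0.02. At an adjusted p under 0.05, 0 of the 83 genes passed, as did 0.0% of all genes tested. At an unadjusted p under 0.05, 1 of the 83 passed, RPL26L1, against 4.77% of all genes. All 4 siRIPK2 libraries were above siNC for 4 genes (RPL11, RPL26L1, RPL39L and RPS26), against 19.3% of all genes, and all 4 were below it for 3 genes (RPL22, RPS23 and RPSA), against 17.3%. Without siRIPK2_3, 28 genes had the remaining siRIPK2 libraries below siNC, and without siRIPK2_4, 6 did. With fewer libraries any gene meets this more easily, and the matching shares of all genes are not given here. The direction of the family was not stable: the median was 0.03 without siRIPK2_1 (49 genes higher), 0.00664 without siRIPK2_2 (44 higher), -0.21 without siRIPK2_3 (9 higher), 0.02 with library totals in place of TMM factors and 0.00448 with the length and GC offsets.

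Against WT, the family stood higher in the siRIPK2 group, but not in each library. Its median deviation was -0.29 in siRIPK2_1 and -0.21 in siRIPK2_2, under the -0.15 of WT. In siRIPK2_3 and siRIPK2_4 it was 0.44 and 0.17. A total of 75 of the 83 genes were higher and 8 lower, with a median log2 fold change of 0.20 (range -0.43 to 0.44), where 51.9% of all genes tested were higher and the median was 0.01. In edgeR, 0 of the 83 genes had an adjusted p under 0.05 (0.0% of all genes), and 0 had an unadjusted p under 0.05, against 1.08% of all genes. The 8 lower genes were RPL39L, RPL7L1, RPSA, RPL22, RPS27L, RPS13, RPL3 and RPS23. All 4 siRIPK2 libraries lay above WT for 4 genes (RPL18, RPL32, RPL36 and RPS26), against 11.5% of all genes, and below it for 1, RPL39L, against 12.8%. The count above WT was 25 without siRIPK2_1 and 16 without siRIPK2_2, and the count below it was 2 without siRIPK2_2 or siRIPK2_4. These counts too are easier to reach with fewer libraries and have no matching share of all genes here. Without siRIPK2_3 the median was 0.03 and 56 genes were higher.

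The siNC library itself stood higher than WT by about as much. Here too 75 of the 83 genes were higher and 8 lower, with a median log2 fold change of 0.25 (range -1.12 to 0.58) and a median over all genes of -0.00166, of which 49.6% were higher. In edgeR 0 genes of the family had an adjusted p under 0.05 (0.0% of all genes), and 1, RPL26L1, had an unadjusted p under 0.05, lower in siNC (2.73% of all genes). The comparison of siRIPK2 with WT and that of siNC with WT share the single WT library, so they are not independent.

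Set against both controls together, 59 of the 83 genes were higher and 24 lower in siRIPK2, with a median log2 fold change of 0.07 (range -0.26 to 0.48). Over the 13901 genes tested, 52.1% were higher and the median was 0.01. In edgeR, 0 of the 83 genes had an adjusted p under 0.05 (0.0% of all genes) and 0 an unadjusted p under 0.05 (2.55%). Only RPS26 had all 4 siRIPK2 libraries above both controls (4.95% of all genes), and 0 genes had all 4 below both (5.45%). The first count was 3 without siRIPK2_1 and 4 without siRIPK2_2, and the second was 1 without siRIPK2_4. Shares of all genes with a library left out are not given for these counts either. Without siRIPK2_3 the median was -0.09 and 17 genes were higher, and without WT it was -0.06 with 27 higher. DESeq2 and limma-voom, run as other tools, also passed 0 of the 83 genes in each of the 4 comparisons.

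**Figure D3:**
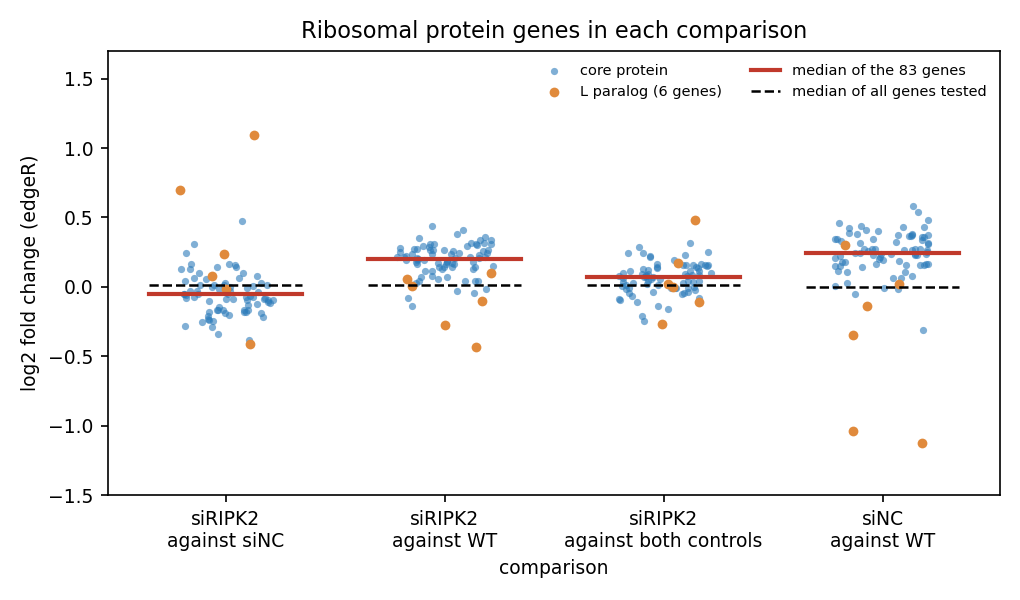
Log2 fold change (edgeR, y axis) of the 83 genes in the 4 comparisons (x axis), with the 6 L paralogs in orange, the family's median as a red line and the median of all genes tested as a dashed line. The red line lies 0.20 above 0 against WT and 0.25 above 0 for siNC against WT, but at -0.05 against siNC, where RPL26L1 stands apart at 1.09.

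The levels differed widely between genes. Per transcript length, in TPM (counts divided by transcript length and scaled to a common total) averaged over the 6 libraries, the most abundant was RPS2, which lies by the mRNA entry channel of the small subunit, at 4613 TPM. It was followed by RPL41, the smallest ribosomal protein, at 2892 TPM, RPS18 at 2655 TPM, RPL19 at 2404 TPM, RPLP0 at 2061 TPM and RPS20 at 2005 TPM. The lowest were RPL39L at 3.59 TPM, RPL22L1 at 13.2 TPM, RPS27L at 34.3 TPM and RPL7L1 at 65.3 TPM, all 4 of them paralogs outside the core set. For 9 genes, RPS27L, RPL7L1 and RPL22L1 among them, the transcript used was over 2000 bases long, so their level per length may be too low.

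Counted per library in CPM, all of these abundant genes (RPS2, RPL41, RPL19, RPS18, RPS20 and RPLP0) had siRIPK2_3 as the highest library and siNC as the next. RPS2 stood at 1895 CPM in WT, 2551 CPM in siNC, then 1958, 1683, 2797 and 2146 CPM in siRIPK2_1 to siRIPK2_4. RPL41 stood at 564 CPM in WT, 737 CPM in siNC, then 474, 616, 934 and 563 CPM in siRIPK2_1 to siRIPK2_4. RPL19, which bridges the subunits, stood at 776 CPM in WT, 909 CPM in siNC, then 685, 738, 1089 and 878 CPM in siRIPK2_1 to siRIPK2_4. In these 3 genes siRIPK2_3 was the highest library, and the 2 controls lay inside the range of the siRIPK2 libraries. RPS18, a protein of the small subunit head, stood at 680.0 CPM in WT, 795 CPM in siNC, then 697, 627, 1098 and 764 CPM in siRIPK2_1 to siRIPK2_4. RPS20, another head protein, stood at 568 CPM in WT, 633 CPM in siNC, then 489, 542, 753 and 606 CPM in siRIPK2_1 to siRIPK2_4. In both genes siRIPK2_3 was again the highest library, followed by siNC.

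The stalk of the large subunit, which recruits the translational GTPases, is built from RPLP0, RPLP1 and RPLP2. RPLP0, its base, stood at 1111 CPM in WT, 1265 CPM in siNC, then 1118, 994, 1455 and 1237 CPM in siRIPK2_1 to siRIPK2_4. RPLP1 stood at 766 CPM in WT, 803 CPM in siNC, then 624, 649.5, 1105 and 861 CPM in siRIPK2_1 to siRIPK2_4, and RPLP2, its acidic partner, at 220.2 CPM in WT, 299 CPM in siNC, then 199.9, 219.7, 343 and 276 CPM in siRIPK2_1 to siRIPK2_4. All 3 were highest in siRIPK2_3, and RPLP0 was among the 4 genes with the smallest ratio of highest to lowest library, 1.46. Beside it in that group, RPS3A, a small subunit protein, had the smallest ratio, 1.30, with 194 CPM in WT, 235 CPM in siNC, then 188, 219.9, 243 and 244 CPM in siRIPK2_1 to siRIPK2_4. RPL22, discussed with its paralog, had a ratio of 1.33.

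Several members have tasks outside the ribosome. RPS3, a DNA repair enzyme and a partner of the NF-kB subunit RELA, stood at 305 CPM in WT, 366 CPM in siNC, then 289.6, 290.1, 477 and 379.5 CPM in siRIPK2_1 to siRIPK2_4. The siRIPK2 mean was 359 ± 89.1 CPM (SD, n = 4), with a log2 fold change of -0.03 ± 0.353 (SE) against siNC. RPS3 therefore differed from siNC by less than the spread of the siRIPK2 libraries. RPS6, the small subunit protein that S6 kinases phosphorylate downstream of mTOR, stood at 492 CPM in WT, 520.0 CPM in siNC, then 459.7, 443, 773 and 597 CPM in siRIPK2_1 to siRIPK2_4. RPS27A, made as a fusion with ubiquitin, stood at 278 CPM in WT, 375 CPM in siNC, then 247, 308, 454 and 365 CPM in siRIPK2_1 to siRIPK2_4. In each of these 3 genes siRIPK2_3 was highest, and the controls lay inside the siRIPK2 range.

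RPL5 and RPL11, which with 5S RNA bind MDM2 and so stabilise p53 when ribosome assembly fails, went separate ways against siNC. RPL5 stood at 614 CPM in WT, 743 CPM in siNC, then 641, 539.5, 955 and 867 CPM in siRIPK2_1 to siRIPK2_4, with siNC inside the siRIPK2 range. RPL11 stood at 516 CPM in WT, 417 CPM in siNC, then 518, 486, 684 and 634 CPM in siRIPK2_1 to siRIPK2_4, so siNC was its lowest library and lay under all 4 siRIPK2 libraries, while WT lay inside their range. The RPL11 log2 fold change against siNC was 0.48 ± 0.309 (SE; unadjusted p = 0.162, adjusted p = 1 in edgeR), and 0.39 to 0.55 when each siRIPK2 library was left out in turn. The test did not separate it from the spread.

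RPSA, the laminin receptor precursor that also docks on the small subunit, showed the opposite order to the family in siRIPK2_3. It has 74 annotated pseudogenes, which can take or lend reads. It stood at 1031 CPM in WT, 1186 CPM in siNC, then 925, 983, 779 and 1057 CPM in siRIPK2_1 to siRIPK2_4. All 4 siRIPK2 libraries were below siNC and siRIPK2_3, the library in which 70 genes of the family peaked, was the lowest of all 6. The log2 fold change against siNC was -0.34 ± 0.268 (SE; unadjusted p = 0.239 in edgeR), and against both controls -0.24 ± 0.197 (SE).

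A further 3 members are, with RPL5 and RPL11, among the genes most often mutated in Diamond-Blackfan anaemia, an inherited failure of red cell production. RPS26, which sits at the mRNA exit channel, stood at 282 CPM in WT, 272 CPM in siNC, then 317, 284, 352 and 399 CPM in siRIPK2_1 to siRIPK2_4. Its siRIPK2 mean was 338 ± 49.4 CPM (SD, n = 4), and although all 4 libraries lay above both controls, siRIPK2_2 did so by little. The RPS26 log2 fold change was 0.29 ± 0.209 (SE) against both controls, with an unadjusted p of 0.203 and an adjusted p of 1 in edgeR. RPS19, needed for maturation of the small subunit, stood at 390.5 CPM in WT, 492 CPM in siNC, then 323, 412, 538 and 479 CPM in siRIPK2_1 to siRIPK2_4. RPL35A, needed for maturation of the large subunit, stood at 191 CPM in WT, 249 CPM in siNC, then 180.3, 201, 304 and 249.7 CPM in siRIPK2_1 to siRIPK2_4. RPS19 and RPL35A had both controls inside the siRIPK2 range.

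Other genes with the lowest p in a comparison were also far from the threshold. RPL36, a large subunit protein, stood at 239 CPM in WT, 334 CPM in siNC, then 264, 241, 382 and 324 CPM in siRIPK2_1 to siRIPK2_4, all 4 siRIPK2 libraries above WT, with a log2 fold change of 0.34 ± 0.339 (SE) against WT. RPL36A, close to the exit site for transfer RNA, stood at 134 CPM in WT, 173 CPM in siNC, then 160.4, 115, 239 and 215 CPM in siRIPK2_1 to siRIPK2_4, a log2 fold change of 0.44 ± 0.427 (SE) against WT. RPL18, another large subunit protein, stood at 301 CPM in WT, 390.2 CPM in siNC, then 302, 314, 498 and 427 CPM in siRIPK2_1 to siRIPK2_4, a log2 fold change of 0.36 ± 0.362 (SE) against WT. These were the 3 higher genes with the lowest p against WT, and each estimate was about the size of its SE. RPS14, a platform protein of the small subunit, stood at 352 CPM in WT, 451 CPM in siNC, then 335, 369, 633 and 499 CPM in siRIPK2_1 to siRIPK2_4. RPL4, which lines the exit tunnel, stood at 1104 CPM in WT, 1263 CPM in siNC, then 1056, 1122, 1926 and 1489.7 CPM in siRIPK2_1 to siRIPK2_4, and RPL6, a surface protein of the large subunit, at 569 CPM in WT, 579 CPM in siNC, then 569, 538, 908 and 724 CPM in siRIPK2_1 to siRIPK2_4. In these 3 genes the siRIPK2_3 level was the highest and no control lay outside the siRIPK2 range.

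The 6 paralogs whose symbols end in L, L1 or AL were less abundant than their parents in every library. RPL26L1, the near copy of RPL26 on chromosome 5 (chr5:172958729-172969771, GRCh38), stood at 40.1 CPM in WT, 19.5 CPM in siNC, then 32.1, 38.5, 46.9 and 49.1 CPM in siRIPK2_1 to siRIPK2_4. The siNC level came from 626 counts and was the lowest of the 6, at 47.2% of the mean of the others, whereas the parent RPL26 stood at 249.8 CPM in WT, 295 CPM in siNC, then 201, 189.6, 383 and 311 CPM in siRIPK2_1 to siRIPK2_4. In siNC RPL26L1 was 6.62% of RPL26, against 16.1% in WT and 12.2% to 20.3% in siRIPK2. The log2 fold change of RPL26L1 was 1.09 ± 0.371 (SE) in siRIPK2 against siNC, with an unadjusted p of 0.0192 and an adjusted p of 0.972 in edgeR. For siNC against WT it was -1.04 ± 0.439 (SE), with an unadjusted p of 0.0462 and an adjusted p of 1. Both comparisons use the same single siNC library, and against WT the siRIPK2 libraries lay on both sides.

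RPL7L1, a nuclear protein of large subunit assembly related to RPL7, stood at 136 CPM in WT, 107 CPM in siNC, then 135, 141, 60 and 115 CPM in siRIPK2_1 to siRIPK2_4. RPL7 itself stood at 708 CPM in WT, 832 CPM in siNC, then 626, 610.1, 1079.7 and 904 CPM in siRIPK2_1 to siRIPK2_4, so the paralog was 5.55% of the parent in siRIPK2_3 and 12.8% to 23.2% in the other 5 libraries. RPL7L1 was the lowest of all 6 in the library where RPL7 was the highest. RPS27L, a p53-inducible relative of RPS27, stood at 106 CPM in WT, 131 CPM in siNC, then 63.6, 126, 133 and 72.8 CPM in siRIPK2_1 to siRIPK2_4, and RPS27 at 222 CPM in WT, 276 CPM in siNC, then 199, 234, 309 and 242 CPM in siRIPK2_1 to siRIPK2_4. The siRIPK2_1 and siRIPK2_4 levels of RPS27L were low (31.9% and 30.1% of RPS27, against 43.1% to 53.6% elsewhere). Its log2 fold change was -0.41 ± 0.445 (SE) against siNC.

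RPL22, an RNA-binding protein that is known to repress its own paralog, stood at 174 CPM in WT, 194 CPM in siNC, then 180.5, 146, 150.5 and 182 CPM in siRIPK2_1 to siRIPK2_4. RPL22L1 stood at 13.3 CPM in WT, 12.1 CPM in siNC, then 14.2, 8.65, 16.2 and 17.9 CPM in siRIPK2_1 to siRIPK2_4, or 5.93% to 10.8% of RPL22. RPL22L1 was 10.8% of its parent in siRIPK2_3, the highest of the 6 ratios, and RPL22 in siRIPK2_3 was lower than in 4 of the other 5 libraries. But siRIPK2_2, where RPL22 was lowest, also had the lowest RPL22L1 level and the lowest ratio, 5.93%. A link between the levels of RPL22 and RPL22L1 was not tested. RPL36AL, which encodes nearly the same protein as RPL36A, stood at 92.8 CPM in WT, 94.2 CPM in siNC, then 62.4, 104, 96 and 111 CPM in siRIPK2_1 to siRIPK2_4, or 38.9% to 89.8% of RPL36A. The overlapping readthrough gene RPL36A-HNRNPH2 had its own counts, 13.8% as many as RPL36A, at 2.56 CPM in siRIPK2_4 and 18.1 to 35.2 CPM elsewhere. RPL39, a small protein of the exit tunnel, stood at 117 CPM in WT, 116 CPM in siNC, then 80.1, 120.2, 149 and 135 CPM in siRIPK2_1 to siRIPK2_4, and its paralog RPL39L, known mainly from testis, at 1.5 CPM in WT, 0.686 CPM in siNC, then 1.31, 0.948, 1.2 and 0.99 CPM in siRIPK2_1 to siRIPK2_4. RPL39L was at 0.591% to 1.64% of RPL39, and its log2 fold change of -1.12 ± 0.728 (SE) for siNC against WT rested on 54 counts in WT and 22 in siNC.

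Against this shared background, 15 gene and library values departed from their library's family median by more than 0.5 in log2(CPM + 1), 12 low and 3 high, in 12 genes. These were picked after their values were seen and carry no test.

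In siRIPK2_1, 5 genes were far below the rest of the family. RPS23, a decoding-site protein of the small subunit (chr5:82273358-82278577), stood at 199.8 CPM in WT, 258 CPM in siNC, then 82.9, 210.3, 248 and 248 CPM in siRIPK2_1 to siRIPK2_4. The siRIPK2_1 level was 35.6% of the mean of the other libraries, a departure of -0.94. RPS10, a protein of the small subunit beak, stood at 304 CPM in WT, 368 CPM in siNC, then 155, 335, 599 and 414 CPM in siRIPK2_1 to siRIPK2_4, a departure of -0.83, and had the largest ratio of highest to lowest library in the family, 3.87. RPS12, a protein of the beak like RPS10, stood at 359 CPM in WT, 407 CPM in siNC, then 183, 332, 636 and 422 CPM in siRIPK2_1 to siRIPK2_4, a departure of -0.71. For RPS10 and RPS12 the siRIPK2_1 level was 38.4% and 42.5% of the mean of the others, and the next lowest library was WT or siRIPK2_2. RPL21, a large subunit protein with 66 annotated pseudogenes, stood at 202 CPM in WT, 237 CPM in siNC, then 112, 195, 292 and 233 CPM in siRIPK2_1 to siRIPK2_4, a departure of -0.57. RPS28, a small subunit protein near the mRNA exit, stood at 95 CPM in WT, 142 CPM in siNC, then 66.6, 119, 191 and 127 CPM in siRIPK2_1 to siRIPK2_4, a departure of -0.52. In each of the 5, siRIPK2_1 was lower than every other library, and 4 of the 5 belong to the small subunit, where 23 of 32 genes were lowest in siRIPK2_1 against 24 of 51 large subunit genes. RPS10, RPS23 and RPS28 overlap other genes (RPS10-NUDT3 for RPS10, ATG10 for RPS23, and KANK3 and NDUFA7 among others for RPS28). Counts of RPS10-NUDT3, 16.3% as many as those of RPS10, were also lowest in siRIPK2_1 (31.4 CPM, and 54.8 to 75.1 CPM elsewhere). The start sites of the first 4 had pyrimidine runs of 11 to 13 bases, like those of members that did not depart.

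In siRIPK2_3, where nearly the whole family was high, 4 genes were not. RPL7L1, with 12 annotated pseudogenes, had a departure of -1.33, and RPSA, with 74 annotated pseudogenes, one of -0.78. RPS15A, a small subunit protein with 23 annotated pseudogenes, stood at 347 CPM in WT, 432 CPM in siNC, then 346, 350.3, 279.8 and 444 CPM in siRIPK2_1 to siRIPK2_4, a departure of -0.81. RPL22, with 22 annotated pseudogenes, had a departure of -0.62. RPL7L1, RPS15A and RPSA were at their lowest of the 6 libraries in siRIPK2_3, at 47.2%, 72.9% and 75.2% of the mean of the others. The remaining departures were RPL26L1 in siNC (-0.96), RPS27L in siRIPK2_4 (-0.64) and siRIPK2_2 (0.52), RPL14 in siRIPK2_4 (-0.56), and RPL7L1 in siRIPK2_1 (0.56) and siRIPK2_2 (0.55). RPL14, a large subunit protein, stood at 414 CPM in WT, 497 CPM in siNC, then 436, 339, 609 and 325 CPM in siRIPK2_1 to siRIPK2_4, with siRIPK2_4 the lowest.

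**Figure D4:**
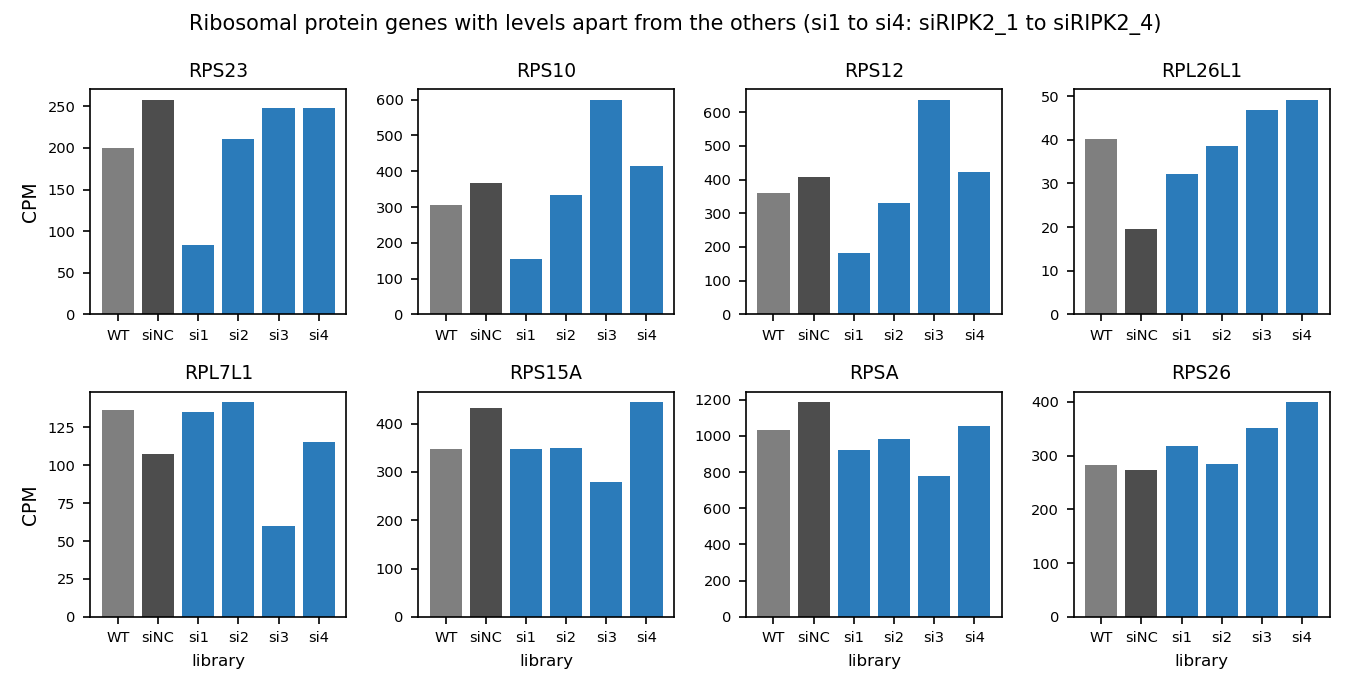
Level in CPM (y axis, from 0) of 8 genes in each library (x axis, grey controls, blue siRIPK2). RPS23, RPS10 and RPS12 are low in siRIPK2_1 alone, RPL7L1, RPS15A and RPSA are lowest in siRIPK2_3, RPL26L1 is lowest in siNC at 19.5 CPM, and RPS26 is the gene with all 4 siRIPK2 levels above both controls.

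Annotation limits some of these values. A total of 77 of the 83 genes have annotated processed or other pseudogenes, 1144 in all and up to 91 for RPL23A, which can take or lend reads. Exons of 28 genes overlap another listed gene, and the 55 without overlap had a median deviation of 0.43 in siRIPK2_3 and -0.29 in siRIPK2_1. The strand setting of the counting is not given in the sources used here.

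Of the ribosome components that carry other symbols, FAU and RACK1 were also highest in siRIPK2_3. FAU, which encodes a ubiquitin-like protein fused to a small subunit protein, stood at 153 CPM in WT, 180.0 CPM in siNC, then 128, 171, 218 and 189.6 CPM in siRIPK2_1 to siRIPK2_4. RACK1, the signalling scaffold on the small subunit head, stood at 739 CPM in WT, 793 CPM in siNC, then 759.8, 591, 978 and 972 CPM in siRIPK2_1 to siRIPK2_4. In FAU siRIPK2_1 was the lowest library, and in RACK1 siRIPK2_2 was.

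Most lists of ribosome production and translation were high in siRIPK2_3, and they differed in siRIPK2_1. The share of all genes tested that were highest in siRIPK2_3 was 20.4%, and 21.1% were lowest in siRIPK2_1. The 38 biogenesis factors (nucleolar proteins such as NOP56 and FBL) had a median deviation of 0.41 in siRIPK2_3, where 29 of them were highest, and 0.06 in siRIPK2_1, where 9 were lowest. RNA polymerase I and III subunits and their factors (27 genes) had 0.27 and 0.15, and the 11 chaperones and importers of ribosomal proteins 0.36 and -0.06. Among 18 translation factors and others whose mRNAs also carry the pyrimidine tract the medians were 0.30 and 0.01. The 24 other initiation factors had 0.27 and 0.05. The 78 mitochondrial ribosomal proteins, which build the separate ribosome of the mitochondrion, had 0.30 and -0.16, with 50 of them highest in siRIPK2_3 and 34 lowest in siRIPK2_1. Regulators of the tract, mTOR and MYC (21 genes) had 0.06 in siRIPK2_3, with 1 of them highest there, and the 16 genes of ribosome quality control had 0.02, with 3 highest there, close to the share of all genes. In siRIPK2_2 the median was -0.32 for the tract-bearing list. Lists not chosen for the tract were low there too, with -0.29 for chaperones and importers and -0.25 for biogenesis factors. The polymerase list had -0.16, other initiation factors -0.15 and mitochondrial ribosomal proteins -0.09. The regulators had 0.02 there and the quality control genes 0.03.

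**Figure D5:**
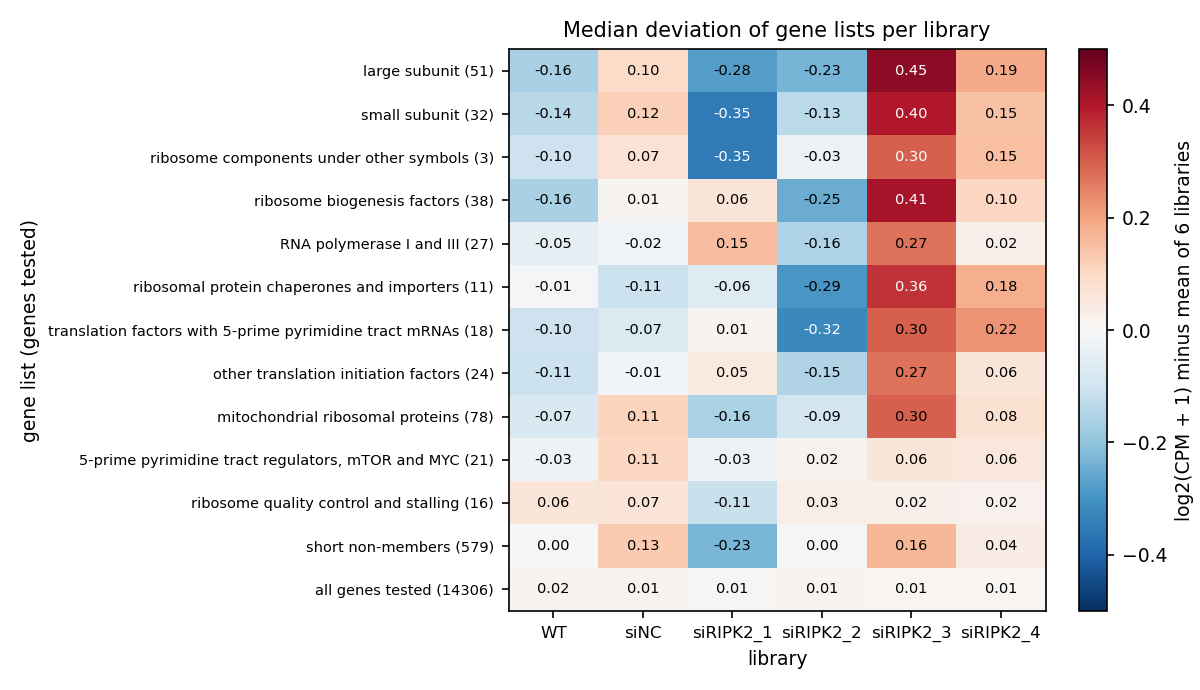
Median deviation from the mean of the 6 libraries, in log2(CPM + 1) (colour and printed value), for gene lists (y axis, with the number of genes tested) in each library (x axis). Ribosome production lists are high in siRIPK2_3 (0.27 to 0.45), the subunit lists are low in siRIPK2_1 (-0.28 and -0.35), and the regulators lie near 0.

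In the comparisons, no gene of these lists passed an adjusted p under 0.05 in edgeR. The lists' counts at an unadjusted p under 0.05 were 0 to 2 per list against siNC, where 4.77% of all genes (509 higher and 173 lower of 14306) were at that level, so most of these counts are near that share. Against siNC, 1 of 18 tract-bearing translation factors was higher, EIF3F, an eIF3 subunit, at 119 CPM in WT, 60.9 CPM in siNC, then 194, 114, 154 and 225 CPM in siRIPK2_1 to siRIPK2_4 (log2 fold change 1.5, unadjusted p = 0.00984). Of the 24 other initiation factors 2 were higher, EIF5B, which joins the subunits, at 122 CPM in WT, 53.7 CPM in siNC, then 161, 122, 150.1 and 134 CPM in siRIPK2_1 to siRIPK2_4 (1.40, unadjusted p = 0.00275), and the helicase EIF4A1, at 499 CPM in WT, 295 CPM in siNC, then 579, 459, 472 and 626 CPM in siRIPK2_1 to siRIPK2_4 (0.86, unadjusted p = 0.0265). These 3 genes were lowest in siNC, and their WT levels lay inside the siRIPK2 range or, for EIF5B, just under it. Among the polymerase genes 1 of 27 was higher against siNC, GTF3A, which binds 5S RNA and its gene, at 68.1 CPM in WT, 40.6 CPM in siNC, then 85.6, 53.4, 78 and 78.3 CPM in siRIPK2_1 to siRIPK2_4. Of the tract, mTOR and MYC regulators 1 of 21 was lower, MXI1, a MYC antagonist, at 15.9 CPM in WT, 22 CPM in siNC, then 7.34, 12.3, 11.3 and 7.56 CPM in siRIPK2_1 to siRIPK2_4 (-1.19, unadjusted p = 0.017). Of the 38 biogenesis factors 0 passed that level, 25 were higher and 13 lower against siNC (median 0.09), and 33 were higher and 5 lower against WT (median 0.28). Of the 78 mitochondrial ribosomal proteins 1 was lower at that level, 23 were higher and 55 lower against siNC (median -0.11), and 53 were higher and 25 lower against WT (median 0.11). Among the quality control genes 1 of 16 was higher, NEMF, which marks stalled nascent chains, at 43.5 CPM in WT, 18.3 CPM in siNC, then 35.3, 43.8, 48 and 33.5 CPM in siRIPK2_1 to siRIPK2_4. In the p53 checkpoint list 1 of 4 was lower against siNC, CDKN1A, the cell cycle inhibitor, at 58.4 CPM in WT, 114 CPM in siNC, then 60.1, 79.7, 74.8 and 59.3 CPM in siRIPK2_1 to siRIPK2_4. Its WT level lay just under the siRIPK2 range.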

How the data were processed

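RNA sequencing of polyadenylated RNA was used for 6 libraries of U118 cells. The authors deposited 1 table of raw, unnormalised counts for Ensembl gene IDs, and all 6 columns matched 1 sample each by name. FastQC, Trimmomatic, HISAT2 and bedtools with build GRCh38 were used, per the submitters' processing notes. Their versions, the annotation and any strand setting were not given in the sources used here. Symbols were matched for 20148 of 20263 IDs, and GENCODE release 29 (20224 IDs found) supplied coordinates, length (the shortest principal protein-coding transcript) and GC content. Start sequences are from RefSeq (GRCh38.p14).

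Counts were tested over all genes with edgeR 4.0.16 in R 4.3.3 (TMM factors, filterByExpr at its minimum of 10 counts, the quasi-likelihood F test, and Benjamini-Hochberg adjusted p under 0.05). A 3-group fit (14306 genes, 3 residual degrees of freedom) gave the comparisons with siNC and with WT, so each lone control is assumed to vary like the siRIPK2 libraries. A 2-group fit (13901 genes, 4 residual degrees of freedom) set siRIPK2 against both controls. The biological coefficient of variation was 33.7% and 31.5%. The model script was tested on simulated counts. CPM use TMM factors, shares use raw counts, and deviations use log2(CPM + 1). DESeq2 1.42.0, limma 3.58.1 and length and GC smoothers from mgcv 1.9.3 were alternatives, next to other scalings, no filter and leaving out each library.

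The members and the gene lists were chosen with earlier results of these data known. Named members were those with fixed roles (stalk, roles outside the ribosome, Diamond-Blackfan anaemia), the L paralogs with their parents, the extremes of level per length and of the ratio of highest to lowest library, and those of lowest p in each direction. The genes that departed from the family were chosen after their values were seen. Levels of RPS4Y1 and RPS4Y2 per library are not reported. Some genes that these rules chose are not reported here.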

Additional observations from a re-analysis of the deposited data

How the results depend on the processing

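In every comparison and alternative run, 0 of the 83 genes passed the adjusted threshold. Of the values for the family, 31 moved beyond their margin (1.5 times for a count, 1 SD or the counting interval for a level) and 219 did not, and 184 values of single genes stayed within theirs. Against siNC the number of higher members, 29, became 45 with library totals, 19 in limma-voom and 9 to 49 when each siRIPK2 library was left out, and its median log2 fold change ran from -0.21 to 0.03. Against WT the 75 higher members became 56 to 79 and the median 0.03 to 0.29. Against both controls the 59 higher members became 17 to 75 and the median -0.09 to 0.21. Over all genes, DESeq2 passed 75 against siNC, 9 against WT, 10 for both controls together and 11 between siNC and WT, where edgeR passed 0. Against WT, limma-voom and no low-count filter each passed 1, and against both controls leaving out a library gave 0 to 2. Members with all siRIPK2 libraries below siNC were 3 to 28 with a library left out, those above WT 4 to 25, those below WT 1 to 2 (2 with library totals), those above both controls 1 to 4 and those below both 0 to 1 (1 with library totals). Any gene meets these orders more easily with fewer libraries, and the shares of all genes are not given for them. Alternatives chosen after seeing the data gave 18 members lowest in siRIPK2_1 with length and GC offsets (47 before), and 64 to 72 highest in siRIPK2_3. The WT share was 3.5% without mitochondrially encoded genes and 3.81% without the 20 largest other genes, and the siNC share 3.94% and 4.32%. The causes were not tested. No paired analysis was possible because WT and siNC hold 1 library each. Depth limits RPL39L, with 22 to 54 counts per library. The family's median SE was 0.36 against siNC on the log2 scale.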
